A study of Rattus norvegicus with 2 samples.

Results

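Translation initiation and elongation factors were examined in the adductor muscle of the rat hindlimb after fine needle stimulation. The members were all genes whose symbol in the array's probe annotation begins with Eif1 to Eif6, Eef1 or Eef2. The Eif2ak kinases, which share the prefix but modify a factor rather than act as one, were left out. This gave 56 genes with 88 probe sets, of 14217 genes that had a probe set of their own. All 56 were measured, meaning that at least 1 array reached the signal floor of 19.8, and 54 reached it on both arrays.

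The stimulated group was adductor muscle of the left hindlimb of male Lewis rats, an inbred strain, with a body weight of 275 g, taken 24 hours after 100 pricks from a needle 0.14 mm wide, spread over an area of 10 mm by 10 mm. The control group was muscle of the right hindlimb of male Lewis rats of the same weight, which was left unpricked. The labels give neither the age nor the number of animals, nor whether both pieces came from the same rat. Each group was 1 Affymetrix array of total RNA, so no difference carries a test, and words such as "higher" refer to these 2 samples alone.

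Translation begins when a small ribosomal subunit, loaded by eIF2 with the initiator tRNA and held together by the large eIF3 scaffold, is brought to the cap of an mRNA by the eIF4 factors. eIF4E binds the cap, eIF4G bridges it to eIF3, and eIF4A unwinds the leader. In elongation, eEF1A delivers aminoacyl-tRNAs, the eEF1B complex reloads eEF1A with GTP, and eEF2 moves the ribosome along. In skeletal muscle, loading, feeding and injury act on this machinery largely through phosphorylation, by mTORC1 on the 4E-BP repressors and by eEF2 kinase on eEF2, which an mRNA array does not measure.

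Factor genes differed little between the limbs, with a small tilt towards the stimulated limb. Of 56, 43 had a log2 ratio of stimulated over control above 0 (76.8%), against 52.3% of 9956 measured genes, and 13 had one below 0, against 47.7%. Their median log2 ratio was 0.11, against 0.019 for all measured genes. With the median gene set to 0, 38 of the 56 lay above it, and with quantile normalization 32 of the 56 lay above the median gene. Of the 56, 2 were at least 1.5-fold higher (3.57%), against a background of 6.59% of all genes. None, 0 of 56, was at least 1.5-fold lower, where 6.94% of all genes were. A 2-fold difference was reached by 0 factor genes in either direction, against 1.43% of all genes in each. The members also kept close to each other, with an SD of 0.25 among their log2 ratios, against 0.43 among all genes.

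The only error at hand is the disagreement of probe sets for the same gene. Over 2174 genes with repeat probe sets above the floor, it gave an SD of 0.31 for a single log2 ratio, and of 0.25 in the 724 brightest of these genes. In the 14 factor genes with such repeats it was 0.11, less than the SD of 0.25 among the 56 factor genes. These values rest on the 2 brightest probe sets of each gene. Wider spreads over all repeats, such as -0.61 to 0.33 for Eef2k, therefore do not enter in full. Of the 56 ratios, 36 lay within 0.31 of 0. Beyond that, 15 were above 0 (26.8%) and 5 below (8.93%), against 19.5% and 18.0% of all genes. Most factor genes are bright, with a median signal of 373 in the stimulated limb and 343 in the control limb, against 89.8 and 88.4 for all genes. Among 4644 genes with a mean signal of at least 100 over both arrays, the median was 0.049 and 57.2% lay above 0, against 0.10 and 75.5% for the 49 factor genes of that brightness. In that bright set 1 factor gene was at least 1.5-fold higher, where 5.36% of genes were, and 0 were at least 1.5-fold lower, where 3.79% were.

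**Figure D1:**
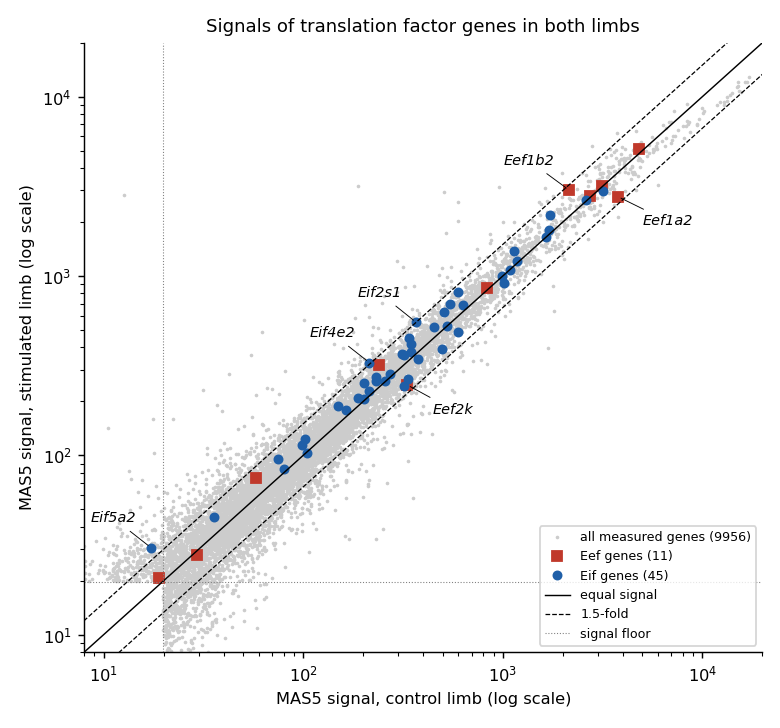
MAS5 signal of each measured gene in the stimulated limb (vertical, log scale) against the control limb (horizontal, log scale), with Eif and Eef genes coloured, other genes in grey, and dashed lines at 1.5-fold. The factor genes hug the line of equal signal, and Eif4e2 and Eif5a2 are the 2 past the 1.5-fold line.

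**Figure D2:**
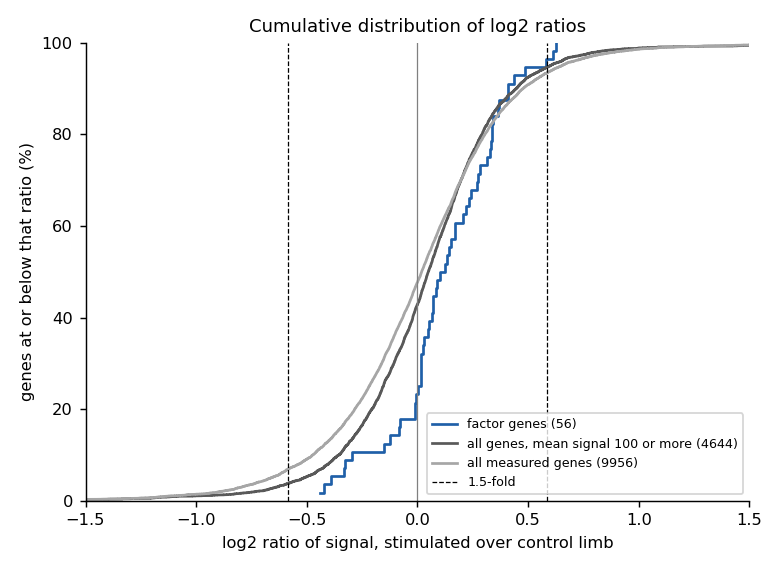
Share of genes (vertical, %) at or below each log2 ratio of stimulated over control (horizontal), for 56 factor genes, 4644 bright genes and all 9956 measured genes. The factor curve lies to the right of both others around 0 and lies within -0.44 to 0.63.

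Whole-array measures bear on these small ratios. Both arrays had a trimmed mean of 76.5, and 48.9% of probe sets in the stimulated sample and 51.1% in the control sample reached the floor. The 18 hybridisation spike-in probe sets had a median log2 ratio of -0.38, and all were below 0. Scaling to them put the median gene at 0.39 and the median factor gene at 0.50, 0.11 above it, and counted 22 factor genes and 28.3% of all genes past 1.5-fold higher. Ratios are given on the deposited scaling, where the median gene lies at 0.019. Eef1a1, Eif3a, Eif4e, Eif4a2 and Eif3h, counted as above 0, lie below that gene. The tissue label was borne out by the muscle fibre genes, whose signals ran to 12095 (Acta1, skeletal actin) in the stimulated limb and 16712 in the control limb.

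Marker genes of cell types differed between the pieces as well. All 14 measured monocyte and macrophage markers lay above 0, with a median log2 ratio of 0.93 and a summed signal of 11756 in the stimulated limb against 2927 in the control limb. None of these markers was at 0, although Spp1, with 12.7, lay below the floor in the control limb. Their log2 ratios started at 0.084, and Spp1 and Gpnmb held 2847 and 3165 of the summed signal in the stimulated limb. Of 12 skeletal muscle fibre markers, 11 lay below 0, with a median of -0.42 and a summed signal of 102317 against 134837. Endothelial markers (median -0.65 over 9 genes) and adipocyte markers (-1.69 over 5) were lower, and fibroblast markers had a median of -0.26 over 9 genes, while neutrophil markers had one of 0.21 over the 2 that were measured. Whether what lies behind these marker values entered the ratios of the factor genes was not tested. In whole muscle, more or fewer cells of a type and more or less RNA per cell cannot be told apart.

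Some factor mRNAs carry a run of pyrimidines at their start, the 5′ terminal oligopyrimidine (TOP) sequence, through which mTORC1 controls their translation. A tract of this kind, here a C followed by at least 6 further C or T letters on the coding strand, was searched from 10 bases before to 20 bases after the annotated gene start. RefSeq promoters of build GRCr8 were found for 51 of the 56 genes. Of these, 12 held the tract (23.5%), as did 13.8% of 27457 rat genes, measured here or not. The 12 had log2 ratios from 0.018 to 0.48 with a median of 0.33, and all 12 lay above 0 (11 above the median gene, and 10 above 0 with quantile normalization). Of the 39 without it, 28 lay above 0, with a median of 0.09. A run of this kind that begins before the searched stretch was not counted, as in Eef1g, Eef2, Eif3d and Eif3k, which are among the 39. The split into 12 and 39 thus depends on the annotated start and the stretch searched. Over all measured genes, the median was 0.044 for 1054 genes with the tract, 55.0% of them above 0, and 0.023 for 7275 without, 52.9% of them above 0. Members of the module with and without the tract differ in other ways too, and a match in these letters is not a mapped TOP mRNA. The 80 bases around the start (60 before, 20 after) are shown for the eEF1A pair, whose members went apart. They are also shown for some tract-bearing members of the eEF1B, eIF2, eIF3 and eIF4 groups described below. Tracts are in capitals, and "no tract" means none within the searched stretch. Not printed are the tracts of Eif3f, Eif2a, Eef1e1, Eif4ebp3, Eef1akmt1 and Eef1akmt2, with log2 ratios from 0.050 to 0.41.
Eef1a1 (chr8:88225050-88225129, minus strand): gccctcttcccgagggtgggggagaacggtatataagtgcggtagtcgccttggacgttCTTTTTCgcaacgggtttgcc
Eef1a2 (chr3:188652614-188652693, minus strand, no tract): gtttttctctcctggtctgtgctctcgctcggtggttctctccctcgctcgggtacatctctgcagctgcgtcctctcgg
Eef1b2 (chr9:72074031-72074110, plus strand): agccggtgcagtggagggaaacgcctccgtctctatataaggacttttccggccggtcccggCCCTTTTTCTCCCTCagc
Eif2s3 (chrX:62933680-62933759, minus strand): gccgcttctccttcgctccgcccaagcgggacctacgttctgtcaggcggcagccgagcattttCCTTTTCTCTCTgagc
Eif3i (chr5:147226891-147226970, minus strand): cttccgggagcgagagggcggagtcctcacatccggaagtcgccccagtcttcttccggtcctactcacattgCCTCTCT
Eif3m (chr3:111897174-111897253, minus strand): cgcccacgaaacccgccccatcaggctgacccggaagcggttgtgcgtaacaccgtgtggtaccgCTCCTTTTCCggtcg
Eif4h (chr12:27719632-27719711, plus strand): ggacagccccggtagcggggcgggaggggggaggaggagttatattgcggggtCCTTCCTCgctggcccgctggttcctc

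The tracts differ in place and length. That of Eef1a1 spans the annotated start and is short, that of Eef1b2 lies just inside the gene and is long, and that of Eif4h ends at the start. The E-box CACGTG, a palindrome that the growth factor-induced regulator Myc can bind, was searched in the whole 300 bases. It was in 12 of the 51 promoters (23.5%) and in those of 7.08% of 27457 rat genes, measured here or not. The median log2 ratio was 0.038 in the 12 factor genes that held it and 0.15 in the 39 that did not, with 9 and 31 of them above 0. Over all measured genes the order was the other way. The median was 0.055 for 837 genes with the E-box, 57.5% of them above 0. It was 0.022 for 7492 without, 52.7% of them above 0. Genes with the E-box were thus a larger share of the measured genes than the 7.08% of rat genes measured or not.

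eIF2, the GTPase that carries the initiator tRNA, and its exchange factor eIF2B lay above 0 in all of their measured subunit genes. Eif2s1, the alpha subunit whose phosphorylation shuts down initiation under stress, had a signal of 551 in the stimulated limb against 369 in the control limb, 1.49-fold higher and just short of the 1.5-fold line. Eif2s3, the gamma subunit, stood at 252 in the stimulated limb against 201 in the control limb (log2 ratio 0.33). Its Y-linked counterpart Eif2s3y was at 286 against 273 (0.068), and the beta subunit Eif2s2 at 1816 against 1713 (0.084), both well inside the probe set SD. The subunits of the same trimer thus covered a range of 0.51 on the log2 scale.

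The 5 subunit genes of eIF2B, which recharges eIF2 with GTP, had log2 ratios from 0.071 to 0.34 with a median of 0.17. Eif2b2 was the most different, with 188 in the stimulated limb against 149 in the control limb (0.34). The catalytic subunit Eif2b5 had 115 against 98.7 (0.22), and its second probe set gave 0.19. Eif2b1, Eif2b3 and Eif2b4 lay within 0.07 to 0.17. No single one of these except Eif2b2 passed the probe set SD of 0.31. Eif2a and Eif2d, which can bring the initiator tRNA without eIF2, had log2 ratios of 0.15 and 0.24.

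eIF3, the many-subunit scaffold, had 11 measured genes with a median log2 ratio of 0.13. Of these genes, 10 lay above 0 (90.9%, against 52.3% of all genes), or 8 with quantile normalization. Eif3i had a signal of 811 in the stimulated limb against 599 in the control limb, 1.35-fold higher, and Eif3k had 452 against 340, 1.33-fold higher. A dim second probe set of Eif3k, with 30.7 against 18.8, was at least 1.55-fold higher. Second probe sets of Eif3a, Eif3c, Eif3l and Eif3j lay below 0, with log2 ratios from -0.14 to -0.029. With the median over probe sets, the eIF3 median was 0.051. Eif3m had 1387 against 1139 (log2 ratio 0.28). Eif3d, a subunit that can itself bind certain capped mRNAs, had 419 against 346 (0.27). Both lay just inside the probe set SD of 0.31 over all genes, but past the 0.25 of the brightest. At the other end, Eif3h had 1086 against 1085 and Eif3j, a loosely attached subunit, had 1649 against 1656. Eif3a, around which the complex assembles, had 261 against 258. The remaining Eif3b, Eif3c, Eif3f and Eif3l had log2 ratios from 0.05 to 0.17.

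The cap-binding eIF4E family held Eif4e2, which had the highest ratio of the 54 factor genes measured on both arrays. Eif4e, the canonical cap-binding protein, had a signal of 1004 in the stimulated limb against 992 in the control limb, the same within 1.01-fold. A dim second probe set of Eif4e had 13.4, below the floor, against 25.5, a log2 ratio of -0.36 or lower. Eif4e2 (4EHP), a relative that binds the cap but not eIF4G and so represses the mRNA it holds, had 329 against 215, 1.53-fold higher. Eif4e3, an atypical cap-binding member, had 485 against 596, 1.23-fold lower, and its second probe set gave the same log2 ratio of -0.30. Under spike-in scaling Eif4e3 came to 0.087, still below the median gene of 0.39. The log2 ratio of Eif4e2 exceeded that of Eif4e by 0.60 and that of Eif4e3 by 0.91, where the difference between 2 probe sets of the same gene has an SD of 0.44. Eif4e3 minus Eif4e was -0.31, inside that SD.

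All 3 eIF4G scaffold genes lay below 0, with a median log2 ratio of -0.33 that became 0.056 under spike-in scaling, below the 0.39 of the median gene there. Eif4g3 had a signal of 245 in the stimulated limb against 321 in the control limb, 1.31-fold lower. Eif4g1, the main bridge between cap and ribosome, had 393 against 494, 1.26-fold lower. Its repeats went the same way, since 3 probe sets measured on both arrays gave -0.78 to -0.19. Eif4g2 (DAP5), which lacks the eIF4E-binding site, had 2996 against 3160, with 3 probe sets between -0.14 and -0.077. The ratios of Eif4g1 and Eif4g3 were slightly past the probe set SD, and that of Eif4g2 was well inside it.

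The helicase genes and their cofactors had log2 ratios from -0.0092 to 0.37. Eif4h, which stimulates eIF4A, had 697 in the stimulated limb against 541 in the control limb, 1.29-fold higher, though its second, dimmer probe set gave 0.045. Eif4a1, the main helicase of dividing cells, had 521 against 453 (log2 ratio 0.20), and Eif4a2, its paralogue common in muscle and brain, had 2651 against 2622 (0.016). Eif4a3, a helicase of the exon junction complex rather than of initiation, had 367 against 313 (0.23). Eif4b, a target of S6 kinase, had 524 against 527, with a second probe set at 0.24.

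The repressors that occupy eIF4E when mTORC1 is inactive went in opposite directions. Eif4ebp1, a main 4E-BP of muscle, had a signal of 630 in the stimulated limb against 507 in the control limb, 1.24-fold higher. Eif4ebp2 had 268 against 337, 1.26-fold lower, and Eif4ebp3 had 45.1 against 35.8, 1.26-fold higher at a low signal. Eif4enif1 (4E-T), which carries eIF4E into the nucleus, had 104 in both limbs to the whole unit. The log2 ratios of Eif4ebp1 and Eif4ebp2 differed by 0.65, against the SD of 0.44 for a pair of probe sets. Eif4ebp2 came to 0.053 under spike-in scaling, below the 0.39 of the median gene there.

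Factors of start-site choice and subunit joining showed no common direction. Eif1a had 4 probe sets, all above 0, from 0.068 to 0.68, the brightest with 123 in the stimulated limb against 102 in the control limb (0.27). Its X-linked counterpart Eif1ax had 909 against 1011 (-0.15). Eif5b, the GTPase that joins the ribosomal subunits, had 346 against 378, and its 3 probe sets agreed closely, between -0.14 and -0.11. Eif1b, a paralogue of the start-site factor eIF1, had a log2 ratio of 0.10 and Eif6, which keeps the large subunit from joining early, one of 0.029. Eif1ad, a protein related to eIF1A, had 95.0 against 74.9 (0.34).

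Eif5a, the hypusine-bearing factor that helps ribosomes through stalling stretches such as runs of proline, had a signal of 2184 in the stimulated limb against 1728 in the control limb, 1.26-fold higher. Its paralogue Eif5a2 had 30.6 against 17.3, the control value being below the floor, so it was at least 1.54-fold higher. This is the second of the 2 genes past the 1.5-fold line, and a second probe set of Eif5a2 near the floor had 20.4 against 19.2.

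**Figure D3:**
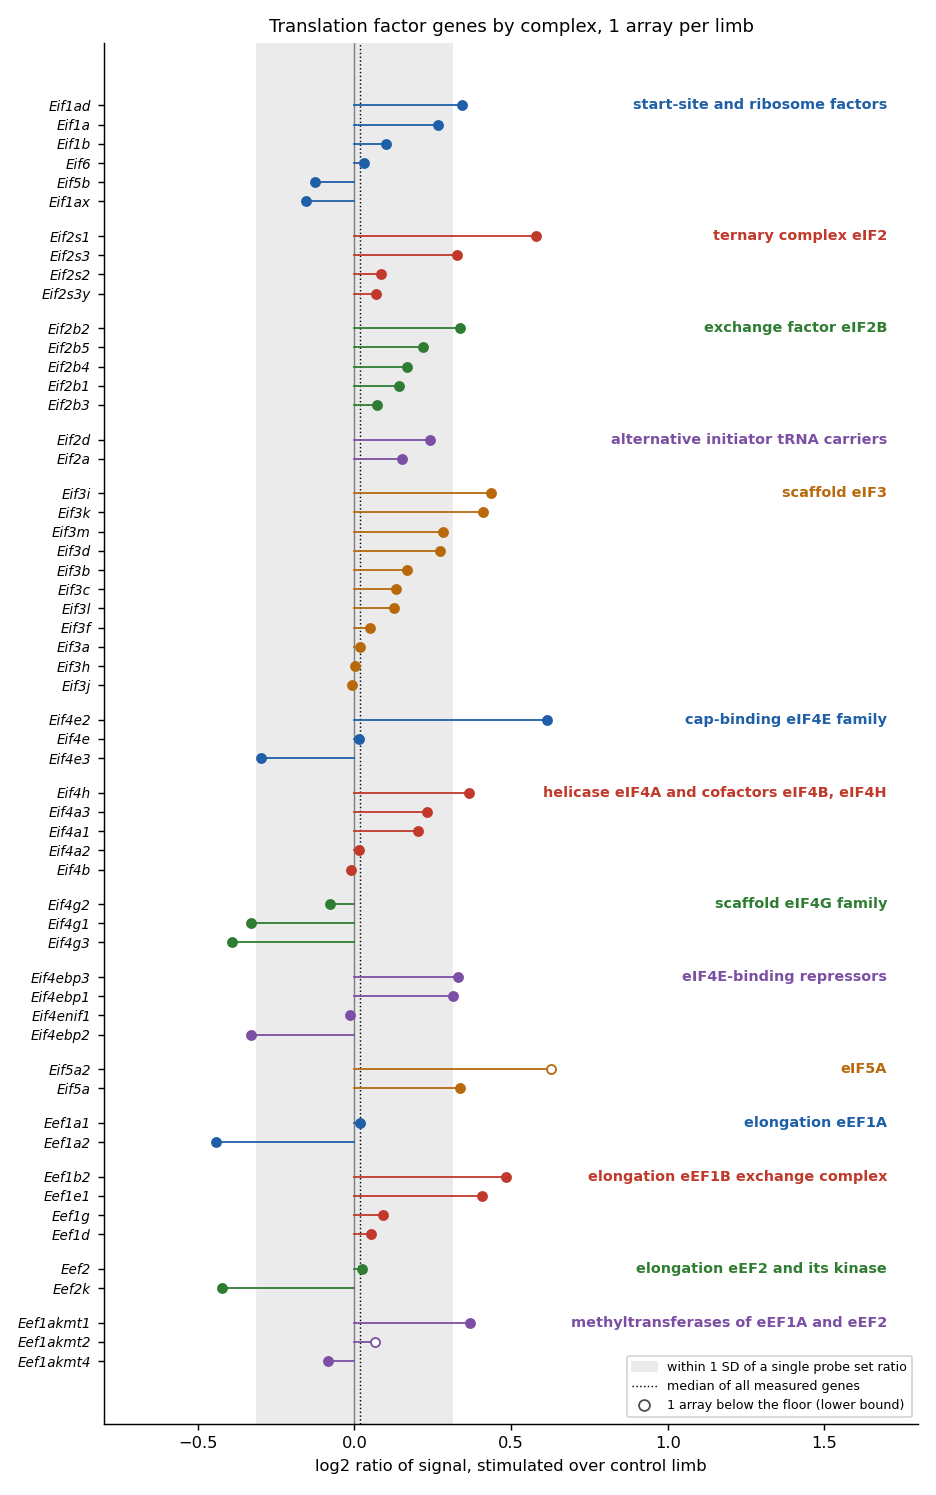
Log2 ratio of signal, stimulated over control limb (horizontal), for each of the 56 factor genes, grouped by complex, with the grey band marking 0.31 on either side of 0, the SD of a single probe set ratio. The eIF2 and eIF2B genes lie above 0 throughout and the 3 eIF4G genes below it, though under spike-in scaling, which puts the median gene at 0.39, 2 of the 3 eIF4G ratios exceed 0 and all 3 stay below that gene.

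**Figure D4:**
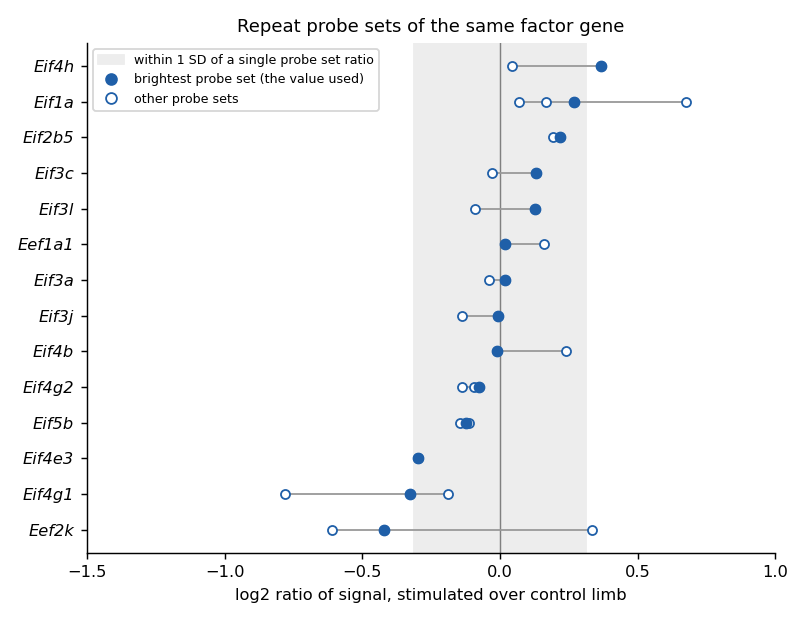
Log2 ratio of every probe set above the floor on both arrays (horizontal) for the 14 factor genes with more than 1 of them, filled where the probe set is the brightest. The probe sets of Eif4g1, Eif4g2, Eif5b, Eif4e3 and Eif3j all lie below 0, those of Eif1a, Eif2b5, Eif4h and Eef1a1 all above it, and those of Eef2k, Eif3a, Eif3c, Eif3l and Eif4b lie on both sides.

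Repeat probe sets pointed 1 way in 9 of these 14 genes (64.3%), against 55.4% of 2174 genes. The SD of the difference between the 2 brightest probe sets of a factor gene was 0.15 over the 14, against 0.44 over all 2174 genes and 0.35 over the 724 brightest.

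Of the elongation factors, the eEF1A paralogues went apart. Eef1a2, which replaces Eef1a1 in mature skeletal muscle fibres, heart and neurons, had a signal of 2773 in the stimulated limb against 3769 in the control limb, 1.36-fold lower (log2 ratio -0.44). Eef1a1, the form of most other cells, had 3178 against 3140 (0.018). Its probe set carries a suffix that marks a match to several similar transcripts, and the unsuffixed probe set had 2948 against 2637 (0.16). The log2 ratio of Eef1a2 was below that of Eef1a1 by 0.46, a difference that does not depend on the factor that scales each array. That difference is close to the SD of 0.44 for a pair of probe sets over all genes, and past the 0.35 of the brightest. The 12 muscle fibre markers had log2 ratios from -0.47 to 0.097 with a median of -0.42, among them Ckm, muscle creatine kinase, with 12064 in the stimulated limb against 16392 in the control limb (-0.44). Myh1 and Ttn, a fast myosin heavy chain and titin, stood at -0.021 and 0.097. Whether fewer fibres in the piece entered into the Eef1a2 value was not tested.

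All 4 genes grouped with the eEF1B exchange complex by symbol, its subunits Eef1b2, Eef1d and Eef1g and the related Eef1e1, lay above 0. The exception was Eef1g when the median over probe sets was used. Eef1b2, the exchange subunit, had 3011 in the stimulated limb against 2153 in the control limb, 1.40-fold higher and beyond the probe set SD. The other exchange subunit, Eef1d, had 861 against 830, and Eef1g, the anchoring subunit, had 5136 against 4824. The log2 ratio of Eef1b2 exceeded that of Eef1d by 0.43 and that of Eef1g by 0.39. Both differences were inside the SD of 0.44 for a pair of probe sets over all genes, but past the 0.35 of the brightest genes. A dim second probe set of Eef1g had 3.33 against 31.5, at least 1.59-fold lower. Eef1e1, named for its likeness to eEF1B and known as a scaffold of the aminoacyl-tRNA synthetase complex, had 319 against 240, 1.33-fold higher.

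Eef2, the translocase, had a signal of 2796 in the stimulated limb against 2747 in the control limb, the same within 1.02-fold. Eef2k, the calcium-dependent kinase that inhibits eEF2, had 247 against 332, 1.34-fold lower (log2 ratio -0.42). Its next probe set had 148 against 226 (-0.61), while another, close to the floor, had 26.7 against 21.2 (0.33). Under spike-in scaling the value used for Eef2k came to -0.039, below the 0.39 of the median gene. Among the lysine methyltransferases that modify eEF1A, Eef1akmt1 had 74.6 against 57.8 (0.37), Eef1akmt4 had 27.8 against 29.5 and Eef1akmt2 lay at the floor with 20.7 against 18.8.

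Genes that act on or beside these factors were taken as lists. Of 11 measured genes of the eIF2 kinases, the eIF2-alpha phosphatase and their partners, 4 lay above 0 and 7 below, with a median of -0.078. Past the 1.5-fold line was Dnajc3 (p58IPK), an inhibitor of eIF2 kinases in the endoplasmic reticulum, with 291 in the stimulated limb against 176 in the control limb, 1.65-fold higher. Impact, a regulator of the eIF2 kinase GCN2, was 1.37-fold lower (26.9 against 36.8). Atf4, the transcription factor translated when eIF2 is phosphorylated, had 2079 against 2065, and the phosphatase subunit Ppp1r15a (GADD34) had 150 against 142.

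mTORC1 and its upstream genes had a median of 0.007 over 26 genes, with 14 above and 12 below 0 and 0 past 1.5-fold in either direction. The most different were Sesn2, a leucine sensor that restrains mTORC1 (27.0 in the stimulated limb against 40.1 in the control limb, 1.49-fold lower), and Rragc, a Rag GTPase that recruits mTORC1 to lysosomes (305 against 216, 1.41-fold higher). S6 kinase, MNK and cap-complex regulators had a median of -0.068 over 12 genes and poly(A)-binding proteins -0.022 over 5, both with 0 genes past 1.5-fold.

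Aminoacyl-tRNA synthetases, which charge the tRNAs that eEF1A delivers, were listed with the scaffold proteins Aimp1 and Aimp2 of their complex, and 17 of these 21 genes lay above 0, against 52.3% of all genes, with a median of 0.12 and 0 past 1.5-fold. Eprs1, the glutamyl-prolyl enzyme, was nearest with 418 in the stimulated limb against 280 in the control limb, 1.49-fold higher. Genes that make hypusine on eIF5A and diphthamide on eEF2, with those of polyamine supply, had 10 of 13 above 0 and a median of 0.16. Among them Dph5, a diphthamide enzyme, was 1.60-fold higher (42.4 against 26.5), and Dph2, another, at least 1.72-fold lower (16.4 against 34.0). Odc1, the first enzyme of polyamine synthesis, was 1.33-fold higher (577 against 432).

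Termination and rescue genes had a median of 0.12 over 8 genes. In that list the GTPases Gtpbp2 and Gtpbp1 went apart, with 122 in the stimulated limb against 79.7 in the control limb (1.53-fold higher) and 45.6 against 77.7 (1.71-fold lower). Factors of the separate mitochondrial translation system had a median of 0.29 over 9 genes, 6 above 0 (66.7%, against 52.3% of all genes) and 3 below. Of these, Mtif2, the mitochondrial initiation factor, was 1.63-fold higher (144 against 87.9) and Mtrf1, a mitochondrial release factor, 1.73-fold higher (52.0 against 30.0).

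**Figure D5:**
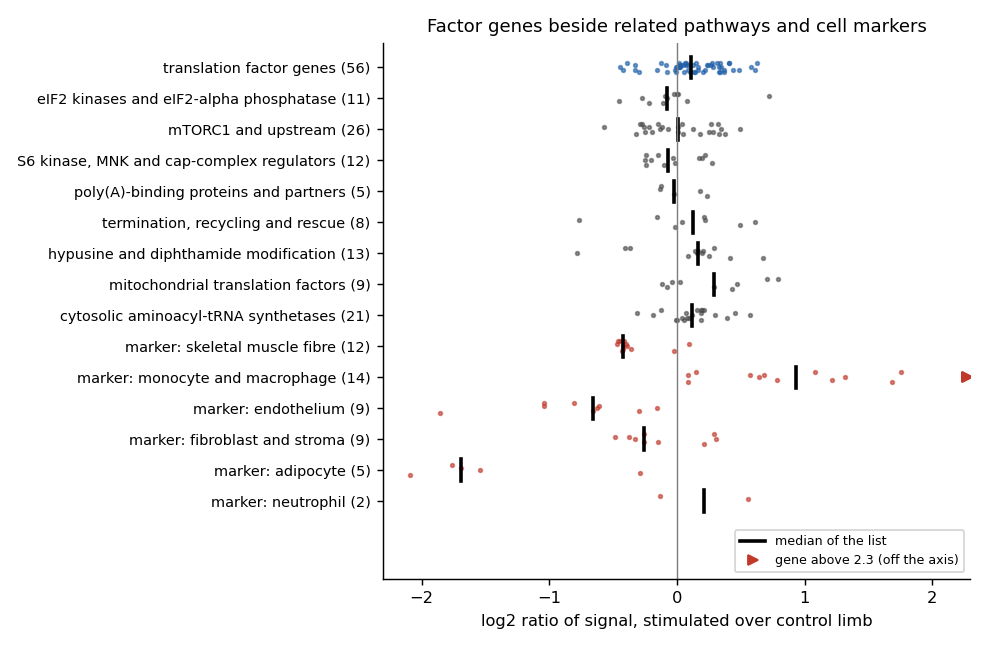
Log2 ratio of signal, stimulated over control limb (horizontal), for each measured gene of the factor module, of 8 related pathway lists and of 6 cell marker lists, with list medians as black bars, the number of genes in brackets, and Spp1 and Gpnmb off the axis at the right. The translation lists have medians between -0.078 and 0.29, while macrophage markers have a median of 0.93 and muscle fibre markers one of -0.42.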

How the data were processed

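The authors deposited 1 linear signal intensity per probe set and array, which per the submitters' processing notes came from MAS5. This algorithm combines perfect-match and mismatch probes and scales each array by 1 factor. For its version and target value the sources used here give nothing. Of 31099 probe sets, 57 controls were set aside. Probe sets with 1 gene in the platform annotation were named, and all 56 factor genes matched RefSeq (GRCr8) by gene identifier.

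Signals below the median of all non-control signals, 19.8, were raised to that floor before the log2 ratio was taken. Where a gene had several measured probe sets, the brightest on average (log2 scale) stood for it. A ratio with 1 array below the floor is a lower bound ("at least"). With 1 array per group there was no test. Precision is limited by that number, and any difference between animals or limbs is not covered by the probe set SD. The steps were tested on simulated data. The 1.5-fold line, the members and the lists were chosen with earlier results of these data known. Every member could be named, and up to 3 genes of each other list by size of ratio. Acta1 and Ckm are marker genes of that kind. Myh1 and Ttn, also named from the muscle fibre list, fall outside that rule, with the smallest ratios of the list by size. Atf4, Ppp1r15a and the repeat probe sets were chosen after their values were seen. Alternatives were other floors, scalings, filters and probe set rules. Python 3.11.15, pandas 2.3.3 and NumPy 2.4.6 were used.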

Additional observations from a re-analysis of the deposited data

How the results depend on the processing

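No paired analysis was possible because each group has 1 array. The count of factor genes at least 1.5-fold higher, 2 as reported, was also 2 with the floor at the 25th percentile, centring on the median gene, quantile normalization or no suffixed probe sets. It was 1 (Eif4e2) with the floor at the 75th percentile, the median over probe sets, both arrays at or above the floor, or a mean signal of at least 100, a filter chosen after seeing the data. It was 0 with a pseudocount in place of the floor and 22 under spike-in scaling. The count at least 1.5-fold lower was 0 under all 10 alternatives. The median of the factor genes lay between 0.095 and 0.13 under 9 of them and was 0.50 under spike-in scaling, above the median of all genes in each case by 0.052 to 0.12. The split of all genes past 1.5-fold, 656 higher and 691 lower as reported, was 2822 and 181 under spike-in scaling. Apart from that scaling, the 1 factor gene that moved by more than the probe set SD was Eef1g, at -0.29 with the median over probe sets. The median of the eIF4E-binding repressors was -0.013 under the 75th percentile floor or the brightness filter, and that of the eIF4E family, near 0 as reported, was -0.0026 with centring, -0.029 with quantile normalization and -0.17 with the median over probe sets. Dim probe sets limit the values of Eif5a2, Eif4ebp3 and the eEF1A methyltransferases.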

Other observations

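A further 5 probe sets matched factor genes together with a close copy and were left out of the comparisons. The probe set shared by Eif3e, an eIF3 subunit, and Eif3el1 had a signal of 1794 in the stimulated limb against 1635 in the control limb, a log2 ratio of 0.13. Eif5, which triggers GTP hydrolysis on eIF2 at the start codon, shares 3 probe sets with its pseudogene Eif5-ps1, with log2 ratios of 0.29, 0.11 and -0.11. The probe set shared by Eif2s3 and Eif2s3y had 81.8 against 84.4, a log2 ratio of -0.045, below those of the probe sets that each gene has for itself.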
